A study of Mus musculus with 12 samples.

Results

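The genes described are 8 genes of sterol-regulated cholesterol synthesis, Acat2, Hmgcs1, Idi1, Fdps, Sqle, Lss, Insig1 and Srebf2. They were chosen by name as rows of the deposited expression table, which lists 11762 genes. The rule itself uses no measured value, but the choice was made with earlier results of these data known. Each of the 8 passed the filter on low values, which left 11745 genes for testing. The values come from poly(A) RNA sequencing of J774A.1, a mouse macrophage line of the BALB/c strain, in 4 groups of 3 replicates that the series describes as biological. The groups were cells given lipopolysaccharide and microparticles together (LPS+MP), lipopolysaccharide alone (LPS), microparticles alone (MP), and mock-treated cells (control). All 4 groups are the same cell line, and the labels name no other allele or agent. Lipopolysaccharide is shed from the envelope of Gram-negative bacteria and is sensed through Toll-like receptor 4. The labels do not say what the microparticles were made of, nor the doses and exposure times. The study asked how microparticles alter gene expression in macrophages with and without LPS.

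Cholesterol is built from acetyl-CoA through mevalonate, isoprenoid pyrophosphates, squalene and lanosterol. The genes of these steps are activated by SREBP2, the product of Srebf2, a transcription factor that is held in the endoplasmic reticulum by SCAP and INSIG proteins while sterol is plentiful. When membrane sterol drops, SREBP2 moves to the Golgi, is cut by proteases and enters the nucleus, where it binds sterol regulatory elements together with NF-Y and Sp1. Macrophages take up much cholesterol from lipoproteins and debris, and oxysterols both restrain SREBP processing and activate LXR, the receptor that drives cholesterol export.

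The promoter windows of the genes were searched for the letters that these factors are known to bind. RefSeq windows (build GRCm38.p6, 250 bases before to 50 bases after a gene's start) were at hand for 6 of the 8 genes, and those of Sqle and Fdps were not analysed here. The sterol regulatory element was searched on both strands as TCACNCCAC and its core as CACCCCAC, the NF-Y box as CCAAT, the GC box of Sp1 as GGGCGG and an E-box as CACGTG. The element and its core overlap by all 8 bases of the core where the N is C. Among the 6, only the window of Hmgcs1 held TCACNCCAC, starting 137 bases before the gene's start, against 1.24% of all 32851 windows. The core was found in Hmgcs1 and in Acat2, where it starts 181 bases before the start, against 2.87% of all windows. A CCAAT box was found in 5 of the 6 genes (37.4% of all windows), the GC box in 6 of 6 (35.7%) and the E-box in Insig1 (7.15%). Printed 5′ to 3′ on the gene's strand are the 250 bases before the start of Insig1 (chr5:28071162-28071411, plus strand), Hmgcs1 (chr13:119690101-119690350, plus strand) and Acat2 (chr17:12960726-12960975, minus strand), the pair with a match to the element or its core beside 1 gene without. Capitals mark the element or its core and CCAAT boxes, which read ATTGG where they lie on the other strand.
Insig1: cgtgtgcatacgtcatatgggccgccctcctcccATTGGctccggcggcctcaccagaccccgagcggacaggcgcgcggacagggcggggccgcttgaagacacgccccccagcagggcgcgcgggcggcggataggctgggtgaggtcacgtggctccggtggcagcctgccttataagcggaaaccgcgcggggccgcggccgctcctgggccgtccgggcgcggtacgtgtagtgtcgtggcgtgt
Hmgcs1: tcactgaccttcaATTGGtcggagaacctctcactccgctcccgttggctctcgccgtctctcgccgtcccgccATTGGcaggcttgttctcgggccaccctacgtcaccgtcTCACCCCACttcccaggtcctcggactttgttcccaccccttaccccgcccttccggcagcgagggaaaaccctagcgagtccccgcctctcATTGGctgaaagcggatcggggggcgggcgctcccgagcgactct
Acat2: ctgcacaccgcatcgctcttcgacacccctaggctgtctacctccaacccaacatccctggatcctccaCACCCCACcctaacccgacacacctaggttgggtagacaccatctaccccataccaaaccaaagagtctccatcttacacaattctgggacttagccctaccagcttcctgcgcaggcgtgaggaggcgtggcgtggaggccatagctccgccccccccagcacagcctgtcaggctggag
A match is a run of letters, not a measured binding site, and the lack of one says only that these letters are not in the window.

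The deposited table places the genes, in a build it does not name, at chr17:12942890-12960747 (Acat2), chr13:119690462-119708086 (Hmgcs1), chr13:8885501-8892451 (Idi1), chr3:89093592-89101967 (Fdps), chr15:59315077-59331192 (Sqle), chr10:76531588-76557138 (Lss), chr5:28071363-28078662 (Insig1) and chr15:82147266-82205376 (Srebf2). Values are CPM, a gene's counted reads as a share of a library's, on a scale common to all libraries, and the depth of each library is unknown. In such bulk values, fewer cells with a transcript and less of it per cell cannot be told apart. Tests used limma on log2(CPM + 1), with Benjamini-Hochberg adjustment over the 11745 genes of each comparison. The words rose and fell are kept for genes with both an adjusted p under 0.05 and a log2 change beyond 1 or -1, which are the series' own thresholds. Group values are means ± SD (n = 3). Of 12 macrophage markers 11 were in the table, and they summed to 5647 to 5871 CPM in LPS+MP, 7098 to 8212 in LPS, 6505 to 6881 in MP and 6340 to 7067 CPM in control libraries. Adgre1, the gene of the F4/80 antigen, was not in the table. The markers did not share 1 direction. In LPS+MP cells Fcgr1 was at 516% of its control mean, Cd14 at 281%, Mertk at 133%, Ptprc at 110% and Spi1 at 99.95%. Cd68 was at 96.7%, Csf1r at 81.7%, Itgam at 70.0%, Tyrobp at 69.5%, Lyz2 at 41.05% and Mrc1, the lowest, at 3.9%. Mrc1 was at 0.247 to 0.921 CPM in LPS+MP and 11.98 to 17.4 CPM in control libraries. The part of these marker levels in the results was not tested. The markers of B cells and epithelium were not in the table, and few of the others were in it: 1 of 6 for T cells, 2 of 6 for neutrophils, 1 of 5 for dendritic cells, 1 of 5 for fibroblasts and 3 of 5 for endothelium. Those in the table summed to at most 21.5 CPM per list and library. LPS replicate 2 stood apart: 339 genes lay over 1 (log2) away from the other LPS libraries' mean, against 1 to 29 genes in each of the other 11 libraries. In that library the 8 genes differed from the other LPS libraries by -0.35 to 0.63 (log2), so values of the named genes without it are also given for LPS where a call or a sign changed or a called value moved by over 1.5 times.

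All 8 genes were lower than in control cells in each of the 3 treated groups, and cells given both agents were the lowest. In LPS+MP cells 7 of the 8 fell against control, where 12.3% of all genes fell, and Srebf2 was the exception. In LPS cells 2 fell, Acat2 and Insig1 (8.05% of all genes fell). In MP cells 5 fell, Acat2, Hmgcs1, Idi1, Lss and Insig1, in a comparison in which 1.85% of all genes fell. None of the 8 rose in any comparison. With the fold threshold set aside (adjusted p under 0.05 alone), 8 of 8 were lower in LPS+MP cells (38.6% of all genes), 8 of 8 in LPS cells (35.6%) and 8 of 8 in MP cells (18.3%). Every treated library lay under every control library for all 8 genes, a separation found for 45.0% of all genes in LPS+MP, 36.9% in LPS and 28.1% in MP cells. The median change of the 8 genes was -1.59 (log2) in LPS+MP, -0.92 in LPS and -1.17 in MP cells, beside -0.10, -0.08 and 0.02 for all genes in the same order. The 3 comparisons share the same control libraries.

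**Figure D1:**
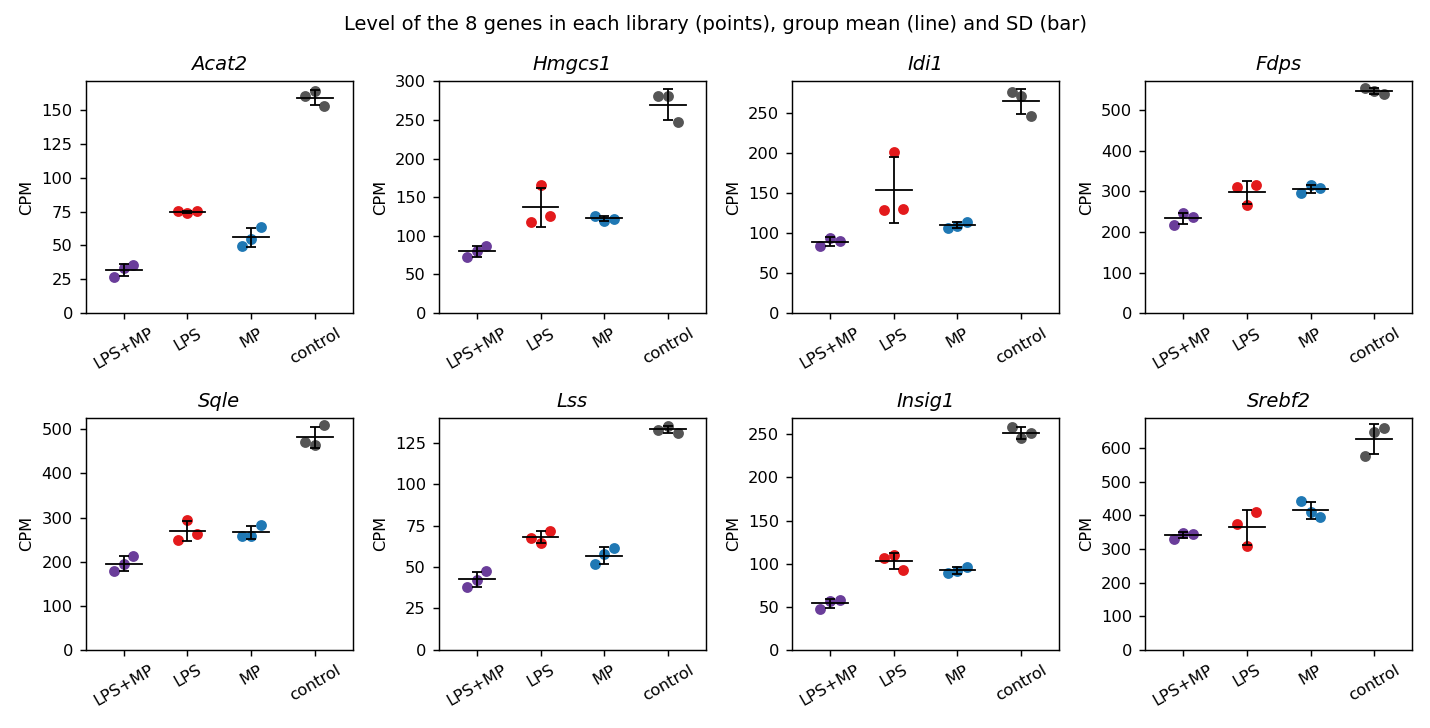
Level of each of the 8 genes in CPM in each library (points), with the group mean (line) and SD (bar), n = 3 per group. The control libraries lie above every treated library in all 8 panels, and the LPS+MP libraries are lowest in 7 of them; in Srebf2 they overlap the LPS libraries.

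The first steps make HMG-CoA. Acat2, the cytosolic acetyl-CoA acetyltransferase that condenses acetyl-CoA units, had 26.8, 33.4 and 35.6 CPM in the LPS+MP libraries. It had 75.4, 73.9 and 75.1 CPM in LPS libraries, 49.6, 54.5 and 63.4 CPM in MP libraries, and 160.4, 164 and 153 CPM in control libraries. The 4 groups did not overlap, and Acat2 fell in each treated group against control, by 2.29 ± 0.10 (log2, ± SE) in LPS+MP, 1.08 ± 0.10 in LPS and 1.50 ± 0.10 in MP cells (adjusted p = 1.8e-11, 2.25e-07 and 4.21e-08). With LPS+MP its mean was 20.1% of the control mean, the lowest share among the 8 genes. No source used here says how reads shared with its close paralogue Acat3 were counted.

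Hmgcs1, the HMG-CoA synthase of the next step, had 72.4, 80.8 and 86.3 CPM in LPS+MP libraries, 118, 166 and 126 CPM in LPS libraries, 126, 119.7 and 122 CPM in MP libraries, and 282, 281 and 247 CPM in control libraries. The LPS and MP libraries overlapped, and both lay between the other groups. Hmgcs1 fell by 1.75 ± 0.11 in LPS+MP cells and by 1.13 ± 0.11 in MP cells (log2, adjusted p = 9.35e-10 and 1.36e-06). In LPS cells its change of -0.99 ± 0.11 stopped just short of the fold threshold (adjusted p = 1.1e-06). Without LPS replicate 2, its highest LPS library, the change was -1.14 and past the threshold.

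The isoprenoid steps come next. Idi1, the isomerase that interconverts the isoprenoid units, had 84.1, 94.5 and 89.8 CPM in LPS+MP libraries, 129.6, 202 and 130.1 CPM in LPS libraries, 107, 109.6 and 114 CPM in MP libraries, and 277, 271 and 247 CPM in control libraries. LPS replicate 2 alone carried the high LPS value. Idi1 fell by 1.56 ± 0.13 in LPS+MP cells and by 1.26 ± 0.13 in MP cells (log2, adjusted p = 3.12e-08 and 2.65e-06). In LPS cells it changed by -0.81 ± 0.13 (adjusted p = 5.4e-05), and by -1.02, past the threshold, without LPS replicate 2.

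Fdps, farnesyl pyrophosphate synthase, had 217, 246 and 237 CPM in LPS+MP libraries, 310.3, 266 and 317 CPM in LPS libraries, 297, 316 and 308 CPM in MP libraries, and 555, 548 and 539.9 CPM in control libraries. The single-agent libraries overlapped, and all of them stood above the LPS+MP libraries. Fdps fell by 1.23 ± 0.07 in LPS+MP cells (log2, adjusted p = 7.55e-10). It was lower, but by less than the fold threshold, in LPS cells (-0.88 ± 0.07, adjusted p = 6.01e-08) and in MP cells (-0.83 ± 0.07, adjusted p = 7.35e-07).

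The sterol-forming steps start from squalene. Sqle, the squalene epoxidase that is one of the rate-controlling enzymes of the pathway, had 178, 195 and 213 CPM in LPS+MP libraries, 250, 294 and 263 CPM in LPS libraries, 259, 258 and 284 CPM in MP libraries, and 472, 465 and 509.9 CPM in control libraries. The MP libraries lay within the range of the LPS libraries. Sqle fell by 1.30 ± 0.08 in LPS+MP cells (log2, adjusted p = 1.09e-09), and changed by -0.84 ± 0.08 in LPS and -0.85 ± 0.08 in MP cells (adjusted p = 2.8e-07 and 1.39e-06), both short of the fold threshold.

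Lss, lanosterol synthase, which closes the sterol rings, had 38.1, 42.3 and 47.3 CPM in LPS+MP libraries, 67.5, 64.7 and 71.7 CPM in LPS libraries, 51.5, 58.0 and 61.3 CPM in MP libraries, and 133, 135 and 131 CPM in control libraries. No 2 of the groups overlapped. Lss fell by 1.63 ± 0.09 in LPS+MP cells and by 1.21 ± 0.09 in MP cells (log2, adjusted p = 1.72e-10 and 7.53e-08), and changed by -0.96 ± 0.09 in LPS cells (adjusted p = 1.41e-07).

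The remaining pair regulates the pathway. Insig1, the sterol sensor partner that retains SCAP and SREBP in the endoplasmic reticulum and is itself an SREBP target, had 47.8, 56.6 and 57.7 CPM in LPS+MP libraries, 107, 110.0 and 92.2 CPM in LPS libraries, 88.6, 91.7 and 96.5 CPM in MP libraries, and 259, 245 and 251 CPM in control libraries. LPS replicate 3 lay among the MP libraries, and the remaining LPS libraries lay above them. Insig1 fell by 2.20 ± 0.09 in LPS+MP, 1.29 ± 0.09 in LPS and 1.44 ± 0.09 in MP cells (log2, adjusted p = 2.91e-12, 3.14e-09 and 9.61e-09). It and Acat2 were the members that fell in all 3 comparisons with control.

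Srebf2 had 330.5, 347 and 345 CPM in LPS+MP libraries, 375, 308 and 411 CPM in LPS libraries, 443, 409.8 and 394 CPM in MP libraries, and 577, 648 and 659 CPM in control libraries. It held the largest share of its control mean among the 8 genes in LPS+MP cells (54.3%) and in MP cells (66.2%). Its changes of -0.88 ± 0.09 in LPS+MP, -0.79 ± 0.09 in LPS and -0.59 ± 0.09 in MP cells (log2) had adjusted p-values of 6.3e-07, 2.65e-06 and 0.000156, and none reached the fold threshold.

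**Figure D2:**
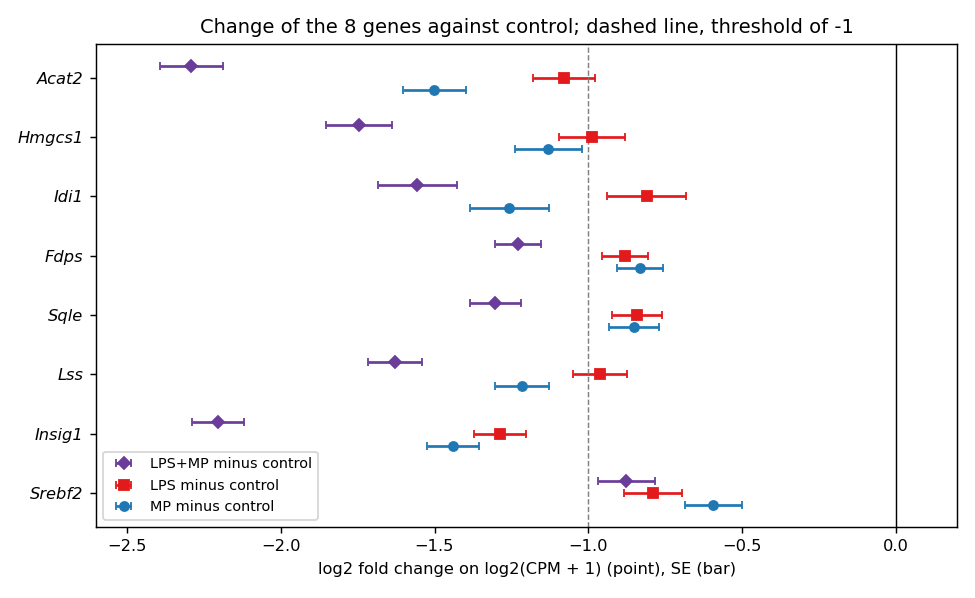
Log2 fold change against control of the 8 genes, ordered from early to late enzymes and then the regulators, with LPS+MP, LPS and MP shown by diamonds, squares and circles, bars the SE and the dashed line the threshold of -1. The LPS+MP change is the furthest from 0 for every gene, from -2.29 (Acat2) to -0.88 (Srebf2).

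Per kilobase of transcript, the control means were 443 CPM per kb for Fdps, 175 for Sqle, 124 for Srebf2, 93.4 for Insig1, 87.5 for Idi1, 83.2 for Hmgcs1, 70.7 for Acat2 and 28.5 for Lss. The order of group means was LPS+MP, MP, LPS and control, from low to high, for Acat2, Hmgcs1, Idi1, Sqle, Lss and Insig1. LPS was below MP for Fdps and Srebf2. The step between the single agents was tested as MP minus LPS, a comparison added after the order of means had been seen. With the adjusted p alone, 3 of the 8 genes were lower in MP than in LPS cells, where 21.2% of all genes were: Acat2 (-0.42 ± 0.10, adjusted p = 0.0026), Idi1 (-0.45 ± 0.13, 0.00792, and -0.24 without LPS replicate 2) and Lss (-0.25 ± 0.09, 0.0223, which passed 0.05 in 11 of 14 alternative settings). Sqle differed by -0.01 (95% interval -0.18 to 0.16, adjusted p = 0.931) and Fdps by 0.05 (-0.11 to 0.21, adjusted p = 0.6). For Insig1 and Hmgcs1 the differences were -0.15 and -0.14 (adjusted p = 0.14 and 0.277), and for Srebf2 0.20 (adjusted p = 0.0868). Insig1 passed 0.05 with median-ratio scaling (-0.27, adjusted p = 0.0135) and without LPS replicate 3 (0.0359), and Srebf2, higher in MP cells, with quantile normalization (adjusted p = 0.036) and without LPS replicate 3 (0.0165).

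With microparticles added to LPS, most of the genes were lower still. In LPS+MP against LPS cells 7 of 8 were lower by the adjusted p alone (22.2% of all genes). Every LPS+MP library lay under every LPS library for 7 of 8 (26.5% of all genes). Only Acat2 fell (-1.21 ± 0.10, adjusted p = 3.35e-07), in a comparison in which 3.89% of all genes fell. Insig1 changed by -0.92 ± 0.09, Hmgcs1 by -0.76 ± 0.11, Idi1 by -0.75 ± 0.13, Lss by -0.67 ± 0.09, Sqle by -0.46 ± 0.08 and Fdps by -0.35 ± 0.07 (adjusted p = 8.72e-07 to 0.00217). Srebf2 changed by -0.09 (95% interval -0.29 to 0.11, adjusted p = 0.502). Its LPS replicate 2 was the lowest of all 12 libraries, and without that library the change was -0.20 with an adjusted p of 0.0249.

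With LPS added to microparticles, the differences of Acat2, Insig1, Hmgcs1, Lss and Idi1 were nearer 0 than with microparticles added to LPS. That of Sqle was about the same, and those of Fdps and Srebf2 were further from 0. For each gene the gap between these differences is the MP minus LPS difference given above. In the main model it passed an adjusted p of 0.05 only for Acat2, Idi1 and Lss. In LPS+MP against MP cells 0 of 8 fell by the limma test with both thresholds, where 7.88% of all genes fell. At an adjusted p under 0.05 alone 7 of 8 were lower (36.6% of all genes). At an unadjusted p under 0.05 all 8 were, a threshold for which the share of all genes is not given here. In this comparison every LPS+MP library lay under every MP library for 8 of 8 genes, and for 44.6% of all genes. The changes were -0.79 ± 0.10 for Acat2, -0.77 ± 0.09 for Insig1 and -0.62 ± 0.11 for Hmgcs1 (adjusted p = 8.62e-06, 1.59e-06 and 0.000173). They were -0.45 ± 0.08 for Sqle, -0.41 ± 0.09 for Lss and -0.40 ± 0.07 for Fdps (adjusted p = 0.000233 to 0.000899). Srebf2 changed by -0.28 ± 0.09 (adjusted p = 0.0179, and 0.251 with median-ratio scaling). Idi1 changed by -0.30 ± 0.13 and missed the adjusted threshold (adjusted p = 0.0597). The median of all genes was -0.14 in this comparison and that of the 8 genes -0.43.

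For each gene the change with both agents was nearer 0 than the sum of the single changes on the log2 scale. The joint change and that sum were -2.20 and -2.72 for Insig1, -2.29 and -2.58 for Acat2, -1.75 and -2.12 for Hmgcs1, and -1.63 and -2.18 for Lss. For Idi1 they were -1.56 and -2.07, for Sqle -1.30 and -1.69, for Fdps -1.23 and -1.71, and for Srebf2 -0.88 and -1.38. The interaction, the change with MP in the presence of LPS minus that in its absence, was above 0 at an adjusted p under 0.05 without the fold threshold for 5 of 8 genes (6.45% of all genes). These were Lss (0.55 ± 0.12, adjusted p = 0.00525), Insig1 (0.52 ± 0.12, 0.00596), Srebf2 (0.51 ± 0.13, 0.0125), Fdps (0.49 ± 0.11, 0.00417) and Sqle (0.39 ± 0.12, 0.0242). Of these, Sqle passed in 12 of 19 alternative settings and the other 4 in 19 of 19. Idi1 (0.51 ± 0.18, adjusted p = 0.0553), Hmgcs1 (0.37 ± 0.15, 0.0944) and Acat2 (0.29 ± 0.14, 0.17) did not pass. Without LPS replicate 2, Idi1 and Hmgcs1 did (adjusted p = 3.39e-06 and 0.0005). Idi1 also passed with quantile normalization (adjusted p = 0.0442), median-ratio scaling (0.0341) and the replicate block (0.0402), and Acat2 with quantile normalization (0.0427) and without LPS+MP replicate 1 (0.0453). The median interaction was 0.50 for the 8 genes and -0.08 for all genes.

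**Figure D3:**
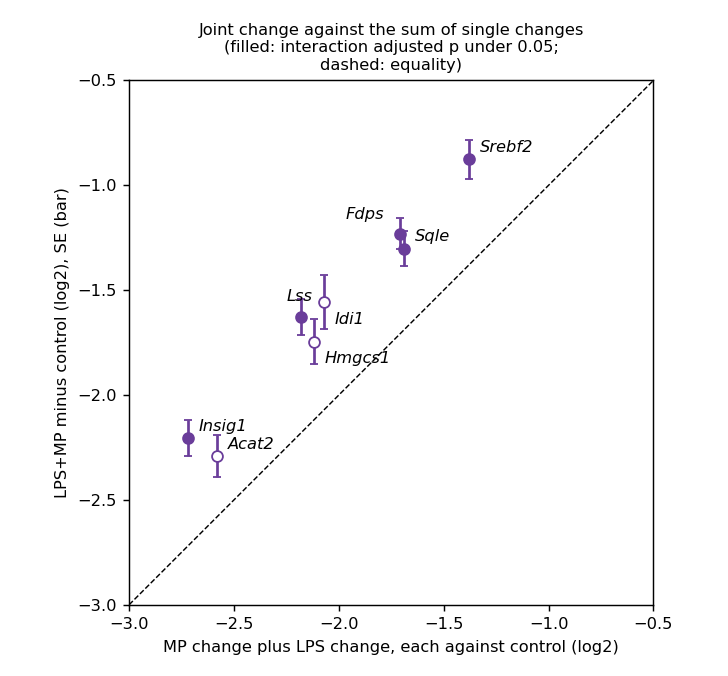
Change of LPS+MP against control (vertical, log2, bar the SE) against the sum of the MP and LPS changes (horizontal, log2) for the 8 genes. All lie above the dashed line of equality, by 0.29 (Acat2) to 0.55 (Lss), and filled points have an interaction adjusted p under 0.05.

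The wider pathway was read from a list of 21 genes of cholesterol synthesis and its isoprenoid steps that holds 6 of the 8 genes. The list includes Ggps1, which is also counted with the other mevalonate branches. Of the 15 list genes outside the 8 genes, 10 fell in LPS+MP, 1 in LPS and 2 in MP cells, and none rose, where 12.3%, 8.05% and 1.85% of all genes fell. The count in LPS cells was thus no higher than the share of all genes would give. Over the alternative settings these counts ran over 8 to 10, 1 to 3 and 1 to 3. Their median changes were -1.23, -0.47 and -0.64 in that order. By the adjusted p alone, 12 of 15 were lower in LPS+MP, 9 in LPS and 13 in MP cells (38.6%, 35.6% and 18.3% of all genes). The mevalonate enzymes Mvd and Pmvk fell in MP cells (-1.27 ± 0.14 and -1.02 ± 0.16, adjusted p = 5.44e-06 and 0.000137). Pmvk lost the call without control replicate 1 (-0.97), MP replicate 1 (-0.92) or MP replicate 2 (-0.95). Lbr, whose product is both a lamin B receptor and a sterol C14 reductase, had 49.0, 53.9 and 62.1 CPM in LPS+MP libraries, 85.2, 98.2 and 93.6 CPM in LPS libraries, 198, 208 and 227 CPM in MP libraries, and 319.9, 320.1 and 327 CPM in control libraries. It fell by 2.54 ± 0.09 in LPS+MP and by 1.79 ± 0.09 in LPS cells (adjusted p = 6.34e-13 and 6.76e-11), and changed by -0.61 ± 0.09 in MP cells (adjusted p = 5.72e-05). Against LPS cells, LPS+MP cells had 14 of the 15 lower at an adjusted p under 0.05 (22.2% of all genes). Of the 15, 1 fell (3.89% of all genes), the second C14 reductase gene Tm7sf2 (-1.10 ± 0.10, adjusted p = 1.21e-06).

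Cyp51, the lanosterol demethylase, changed against control by -1.25 ± 0.11 in LPS+MP, -0.25 ± 0.11 in LPS and -0.92 ± 0.11 in MP cells (adjusted p = 1.06e-07, 0.0682 and 1.68e-05). Without LPS replicate 2 its change in LPS cells was -0.40 (adjusted p = 0.000337). The late enzyme gene Sc5d was higher in LPS cells (0.79 ± 0.09, adjusted p = 1.98e-06), and Ggps1, which leads from farnesyl pyrophosphate to protein prenylation, was higher in LPS+MP (0.70 ± 0.13), LPS (0.60 ± 0.13) and MP cells (0.36 ± 0.13). These differences of Sc5d and Ggps1 had adjusted p-values of 1.98e-06 to 0.0347 and did not reach the fold threshold.

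**Figure D4:**
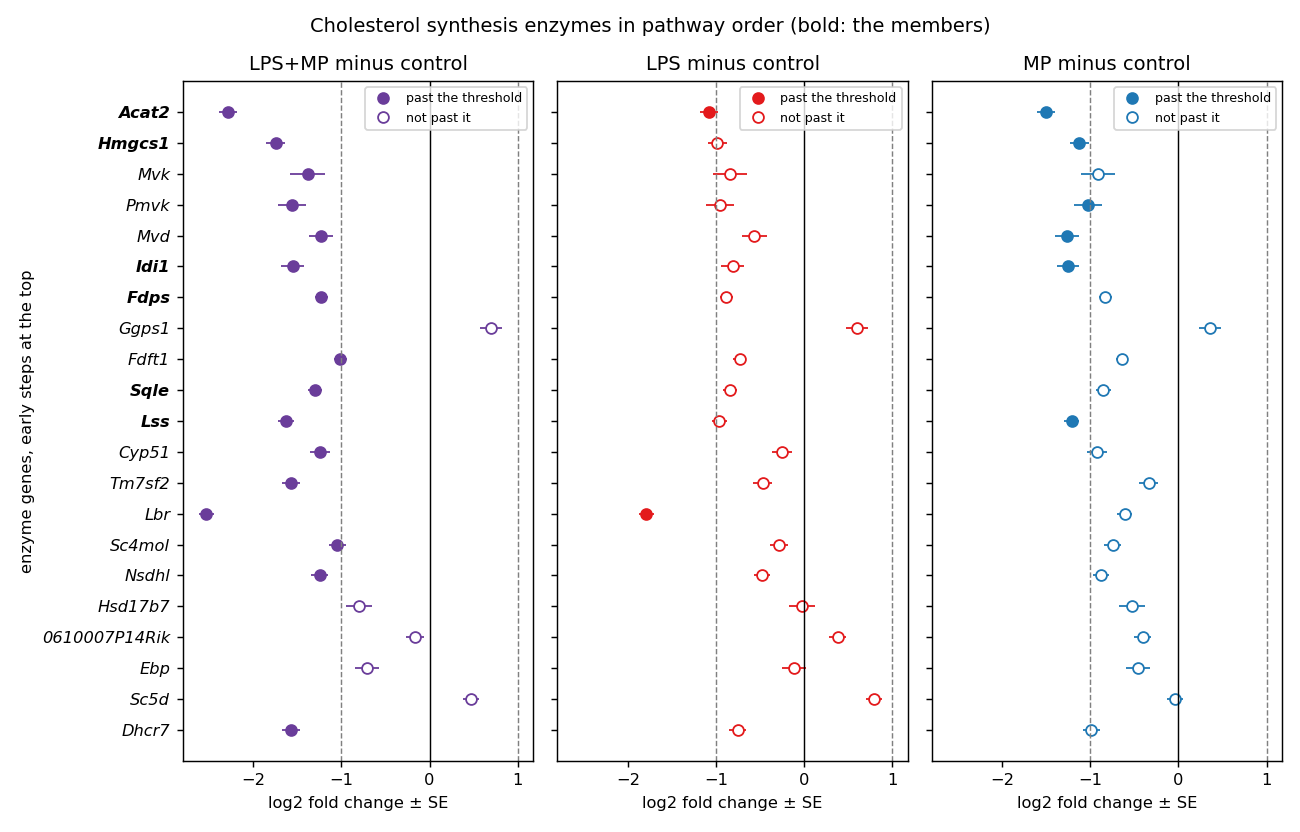
Log2 fold change against control (point, bar the SE) of the 21 genes of the cholesterol synthesis list in pathway order, Ggps1 included, from LPS+MP (left) over LPS to MP (right), with the genes of the set in bold. Filled points are past both thresholds, 16 genes in LPS+MP, 2 in LPS and 6 in MP cells, all of them lower.

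A list of genes that carry, process or restrain SREBP or take part in sterol-driven protein turnover held 11 besides Insig1 and Srebf2. Of these, only Srebf1, the gene of SREBP1, fell, in LPS+MP cells (-1.44 ± 0.14, adjusted p = 1.59e-07). It changed by -0.86 ± 0.14 in LPS and -0.83 ± 0.14 in MP cells. Among all genes 12.3%, 8.05% and 1.85% fell in LPS+MP, LPS and MP cells. The count in LPS+MP cells was no higher than that share would give. At an adjusted p under 0.05 alone, 4 of the 11 were lower and 4 higher in LPS+MP cells. In LPS cells 4 were lower and 3 higher, and in MP cells 3 and 3. In the same order, 38.6%, 35.6% and 18.3% of all genes were lower, and the shares higher are not given here. Scap averaged 47.7 ± 2.96 CPM in LPS+MP, 45.5 ± 6.77 in LPS, 50.9 ± 1.29 in MP and 55.4 ± 1.28 CPM in control cells, and Insig2, the paralogue of Insig1, 40.8 ± 1.17, 40.7 ± 3.90, 37.4 ± 2.42 and 42.4 ± 4.57 CPM. The changes of Insig2 against control were -0.05, -0.06 and -0.17 in the same order (adjusted p = 0.659, 0.625 and 0.171).

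Uptake genes did not share 1 direction. Of 14 genes for uptake, lysosomal release and transfer of sterol, 3 fell and 1 rose in LPS+MP cells, 1 fell and 1 rose in LPS cells, and 1 fell in MP cells. Among all genes 12.3%, 8.05% and 1.85% fell in these groups and 8.52%, 8.3% and 1.82% rose. Lrp1, a large endocytic receptor, fell in all 3 (-2.00 ± 0.13, -1.42 ± 0.13 and -1.08 ± 0.13), but with quantile normalization its change in MP cells was -0.81, which left no call there. Gramd1a, a sterol transfer gene, had a change of 0.96 in LPS cells and rose without LPS replicate 2 (1.13). Stard4, a sterol carrier, fell in LPS+MP cells (-1.57 ± 0.09). The sterol carrier gene Stard5 rose in LPS+MP and LPS cells (1.85 ± 0.10 and 1.96 ± 0.10) and stood at 0.82 ± 0.10 in MP cells. Lipa, the lysosomal acid lipase that frees cholesterol from its esters, fell in LPS+MP against MP cells (-1.24 ± 0.07, adjusted p = 7.01e-10).

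Of 12 genes of LXR, oxysterol handling and export, 3 fell and 1 rose in LPS+MP cells, 1 fell and 2 rose in LPS cells, and 0 were called in MP cells by limma. Among all genes 12.3%, 8.05% and 1.85% fell in LPS+MP, LPS and MP cells, and 8.52%, 8.3% and 1.82% rose. In MP cells 3 of the 12 were lower and 2 higher at an adjusted p under 0.05, where 18.3% of all genes were lower. At an unadjusted p under 0.05, 4 were lower and 2 higher. The shares of all genes that were higher, or that passed the unadjusted p, are not given here. Nceh1, whose product is a cholesterol ester hydrolase, changed by -0.95 in LPS cells and fell without LPS replicate 2 (-1.07). Gramd1a and Nceh1 were chosen for naming after their values were seen. The exporter gene Abca1 averaged 503 ± 34.7 CPM in LPS+MP, 857 ± 78.5 in LPS, 317 ± 25.9 in MP and 316 ± 25.3 CPM in control cells. It rose in LPS cells by 1.43 ± 0.09 (adjusted p = 1.41e-09), and in MP cells its change was 0.00 ± 0.09 (adjusted p = 0.998). Nr1h3, the gene of LXR alpha, rose in LPS+MP and LPS cells (1.42 ± 0.17 and 1.22 ± 0.17). Apoe, the gene of apolipoprotein E, fell in LPS+MP cells and in LPS cells (-2.22 in LPS, adjusted p = 3.01e-05). It averaged 9.66 ± 6.45 CPM in LPS+MP, 5.95 ± 2.34 in LPS, 16.6 ± 5.07 in MP and 30.2 ± 2.80 CPM in control cells. Nceh1 and Srebf1 also fell in LPS+MP cells.

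Of 11 fatty acid genes linked to SREBP1, 6 fell and 1 rose in LPS+MP cells, 2 fell in LPS cells and 4 fell in MP cells, with medians of -1.39, -0.75 and -0.60. The shares of all genes are those given for the uptake genes. The pair that fell in LPS cells was Acss2 (-1.07) and Mid1ip1 (-1.03), both near the threshold, and over the alternative settings 0 to 4 genes fell there: 0 with quantile normalization or median-ratio scaling, and without LPS replicate 2 Mid1ip1 stood at -0.84. Scd2, a desaturase, had 602, 689 and 760 CPM in LPS+MP libraries, 1751, 1792 and 1678 CPM in LPS libraries, 1150, 1209 and 1264 CPM in MP libraries, and 3031, 3170 and 3268 CPM in control libraries. The groups did not overlap, and Scd2 fell in LPS+MP (-2.21 ± 0.09) and MP cells (-1.39 ± 0.09), with -0.86 ± 0.09 in LPS cells. Me1, the malic enzyme that supplies NADPH, was the gene that rose in LPS+MP cells (1.32 ± 0.12). In the branches that lead from mevalonate to dolichol, ubiquinone and prenylated proteins, 1 of 12 genes fell in LPS+MP cells (Pdss1, -1.03 ± 0.13, and -0.75 with quantile normalization), and 0 were called in LPS and MP cells by limma. The count in LPS+MP cells was no higher than the share of all genes that fell there (12.3%) would give. Of these 12, 6 were lower and 3 higher in LPS cells and 1 was lower and 1 higher in MP cells, at an unadjusted as at an adjusted p under 0.05. By the adjusted p, 35.6% of all genes were lower in LPS and 18.3% in MP cells. The shares higher, or at the unadjusted p, are not given here.

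**Figure D5:**
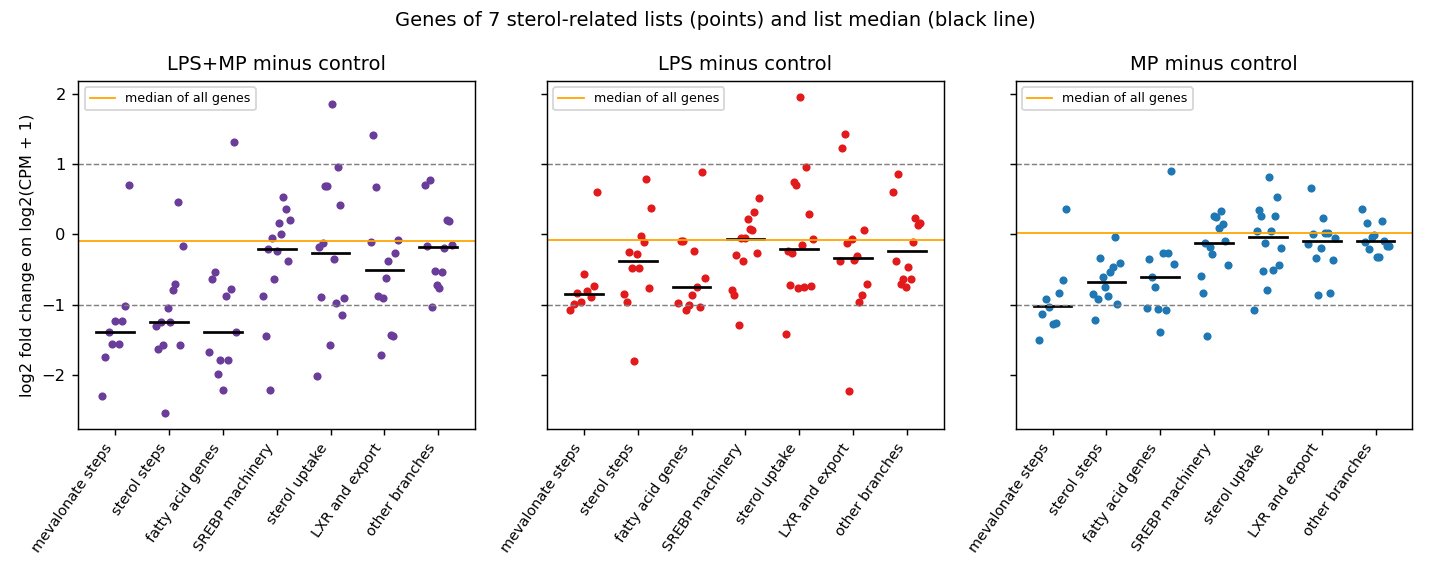
Log2 fold change against control of each tested gene (point) of 7 sterol-related lists, with the list median (black line) and the median of all genes (orange line), for LPS+MP (left), LPS (middle) and MP (right). The lists of mevalonate and sterol steps and the fatty acid genes lie lowest, with medians of -1.38, -1.25 and -1.39 in LPS+MP cells.

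The 8 genes followed each other closely over the libraries. The correlation of each with their mean profile, in which it is itself included, was 0.996 for Insig1, the highest, and 0.903 for Srebf2, the lowest (Pearson, 12 libraries in 4 groups, which share the group differences). Outside the set, the genes most like this profile were Elmo2, an engulfment gene (0.990), Arhgap1, Tpcn1, Itsn1, Arrb1, Slc35b2, Wipf1, Lair1, Pdk1 and Eif2ak3 (0.983). None of these 10 is on the sterol lists. Arrb1, the gene of beta-arrestin 1, averaged 53.8 CPM in LPS+MP, 89.1 in LPS, 73.3 in MP and 226 CPM in control cells. The closest genes of the lists were Fasn, fatty acid synthase, at rank 13 of 10855, Fdft1, squalene synthase, at rank 15, the desaturase Fads2 at rank 32 and Dhcr7, the last reductase of cholesterol synthesis, at rank 37. Within the LPS+MP group, replicate 1 was the lowest library for 8 of the 8 genes, at -0.35 to -0.07 (log2) from the mean of the other LPS+MP libraries.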

How the data were processed

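RNA sequencing values of 12 libraries, 3 replicates in each of 4 groups, were analysed, grouped and numbered as the labels give them. Per the labels' protocols, libraries came from poly(A)-selected RNA and a directional kit. The submitters' processing notes name edgeR, DESeq2, HTSeq, TopHat2 2.1.1, Trimmomatic 0.36 and FastQC 11.5 without their roles. Neither the strand setting of the counting nor the genome build is given in the sources used here. The deposited columns are headed RPKM but were read as CPM made by the authors, because each sums to between 998867 and 999273 and is not divided by length. The deposited logCPM column, read as a log2 mean, differed from the log2 mean of the 12 columns with an SD of 0.20, and of 0.99 if transcript length was multiplied in. Depth is unknown, so no counting intervals are given.

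The filter dropped 17 genes that reached 1 CPM in fewer than 3 libraries, and the rest were taken as log2(CPM + 1). A model of 4 group means over 12 libraries was fitted with limma 3.58.1 (R 4.3.3, variance trend, Benjamini-Hochberg over 11745 genes), where the design had assumed RPKM. The procedure was tested on simulated data. Members, gene lists and the naming rule (every member, and list genes called or central to sterol control) were chosen with earlier results of these data known. Some genes of the lists are not reported here and do not enter the lists' counts and medians. Transcript lengths come from GENCODE M21, which held 11655 of the table's transcript IDs, and promoter windows from RefSeq (GRCm38.p6). The alternatives changed the pseudocount (0.1), the filter (none, or 5 CPM), the scaling (quantile, median-ratio), the variance trend, the fold threshold and the libraries fitted (compared groups, each library left out), or added a replicate block. The MP minus LPS comparison and leaving LPS replicate 2 out of comparisons that do not use it were added after the data were seen. Replicate numbers were not used as pairs in the main model.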

Additional observations from a re-analysis of the deposited data

Results flagged for a closer look

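For 5 of the 8 genes the change with MP differed between cells with and without LPS, by the interaction term of the model (limma, adjusted p under 0.05). Among all 11745 genes tested, 2583 differed so in either direction, and 6.45% were above 0 like these 5. The change with MP in the presence of LPS minus that in its absence was 0.55 for Lss, 0.52 for Insig1, 0.51 for Srebf2, 0.49 for Fdps and 0.39 for Sqle (log2, adjusted p = 0.00525, 0.00596, 0.0125, 0.00417 and 0.0242). In each the change with MP was nearer 0 when LPS was present: -0.67 in its presence and -1.21 in its absence for Lss, -0.92 and -1.44 for Insig1, -0.09 and -0.59 for Srebf2, -0.35 and -0.83 for Fdps, and -0.46 and -0.85 for Sqle. The interaction is a difference on the log2 scale, and none of the 5 reached 1. That of Sqle passed the adjusted p in 12 of 19 alternative settings.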

How the results depend on the processing

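Of 904 values of a gene of the set under an alternative, 862 kept their direction and their side of the thresholds, 8 changed sign, and 34 passed the threshold anew, 31 of them because the fold threshold was dropped. Direction could not change under the filters, variance trend, replicate block, compared groups or fold threshold, which leave a log2 change as it is. The same holds for leaving out LPS replicate 2 where it is not used. No value of the set lost its call. All 8 genes stayed lower than control at an adjusted p under 0.05 in every alternative run, in each of the 3 treated groups. Without the fold threshold, the members called were 8 in MP and 8 in LPS against control, 7 in LPS+MP against LPS, 7 in LPS+MP against MP, 5 for the interaction and 3 for MP minus LPS, and the genes called in all were 4570, 7297 and 7786 (MP, LPS and LPS+MP against control), 4138, 6527, 2583 and 6573 (LPS+MP against LPS, against MP, interaction, MP minus LPS). With a pseudocount of 0.1, 807 genes were called in LPS+MP against LPS, against 531. Leaving out 1 library at a time gave 2 to 4 members called in LPS against control, with 4 (Acat2, Insig1, Hmgcs1 and Idi1) without LPS replicate 2, and Hmgcs1 also passed without control replicate 3 (-1.05). The signs that changed were all of differences near 0. In LPS+MP against LPS, Srebf2 ran over -0.203 to 0.004 as single libraries were left out, above 0 without LPS replicate 3. In MP minus LPS, Hmgcs1 ran over -0.239 to 0.005, Fdps over -0.030 to 0.096 and Sqle over -0.060 to 0.057, each changing sign without LPS replicate 2 and Sqle also without MP replicate 1 (0.011) or MP replicate 2 (0.015). Fdps stood at -0.068 with median-ratio scaling and Sqle at 0.033 with quantile normalization. The cause was not tested.

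At an adjusted p under 0.05 alone, Idi1 in LPS+MP against MP passed in 3 of 15 alternatives (0.000168 to 0.341), and Srebf2 there lost it with median-ratio scaling, without MP replicate 1 (0.0753) and without LPS+MP replicate 1 (0.0641). The interaction of Sqle reached 0.0704 without control replicate 3. Same-numbered libraries of different groups showed no common deviation as a set (correlation of deviations over 18 pairs, median 0.0178, -0.247 to 0.158). The same-numbered pairs of control and LPS+MP libraries were at 0.07, 0.104 and 0.1. Whether the replicates were paired is not settled by these values. The replicate block changed no count of members by over 1.5 times, with 5, 2 and 7 members called for MP, LPS and LPS+MP against control. Without it Idi1 missed, and with it passed, for the interaction (0.0402) and LPS+MP against MP (0.0411). The median of all genes was -0.10 in LPS+MP against control, -0.14 in LPS+MP against MP and 0.12 in MP minus LPS as deposited, and near 0 with median-ratio scaling.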
